A study of Homo sapiens with 6 samples.

Results

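The 9 enzymes described here make serine from glucose carbon or move its carbon through folate. They were chosen by name, with earlier results of these data known. Each was taken as the row of the gene table that carries its symbol, and all 9 were found among 46427 genes. They are *PHGDH*, *PSAT1* and *PSPH* of serine synthesis, *SHMT1* and *MTHFD1* of the cytosol, and *SHMT2*, *MTHFD2*, *MTHFD1L* and *ALDH1L2* of the mitochondrion. All 9 passed the filter on low counts, which left 18366 genes for testing.

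RNA sequencing compared HCT116 cells, a human colorectal carcinoma line, with a bi-allelic *ZKSCAN3* mutant of the same line, to ask which genes depend on this zinc finger transcription factor. Parental cells (*ZK3*-WT) and knockout cells (*ZK3*-KO) gave 3 libraries each, all from cells grown in DMEM with serum. The knockout was made with pX458 carrying Cas9 and a guide against the first exon, with loss of the start codon, followed by puromycin and single-cell selection. The sources used here do not say whether the 3 *ZK3*-KO libraries came from 1 clone or several, or whether *ZK3*-WT cells went through selection, so genotype, clone and selection cannot be told apart.

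Between 60827060 and 69739215 reads were counted per library. Values are given as CPM, read counts scaled to a common library size with TMM factors that correct for composition, and as the authors' TPM, which also divides by transcript length, where levels of different genes are compared. *ZK3*-KO replicate 3 stood apart, with a chi-square per degree of freedom of 349 and 543 against the other *ZK3*-KO libraries, where all other pairs of 1 genotype lay between 41.5 and 95.1 (each enzyme is also given without it). *ZKSCAN3* mRNA, which a lost start codon need not lower, was 28.1, 23.4 and 19.8 CPM in *ZK3*-WT and 25.4, 24.9 and 13.6 CPM in *ZK3*-KO replicates 1, 2 and 3. Of 10 colon epithelial markers 7 passed the filter, led by *KRT8*, with a summed level of 2951 to 3743 CPM in *ZK3*-WT and 2741 to 5448 CPM in *ZK3*-KO cells, while *CDX1* was at or near 0. Fibroblast markers summed to 44.8 to 57.0 CPM in *ZK3*-WT and 32.8 to 99.3 CPM in *ZK3*-KO cells, led by *COL1A1*, with *COL1A2*, *DCN*, *LUM* and *PDGFRA* at or near 0. Immune markers summed to 3.72 to 11.1 and 2.38 to 9.06 CPM, and endothelial markers to 1.48 to 2.40 and 0.851 to 2.5 CPM, in *ZK3*-WT and *ZK3*-KO cells.

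Serine is made from a glycolytic intermediate, and its side-chain carbon is handed to tetrahydrofolate when serine is cleaved to glycine. The folate-bound carbon is oxidised and reduced in parallel sets of reactions in the cytosol and the mitochondrion, with formate passing between them, and it feeds the synthesis of purines, thymidylate and methionine. In proliferating and tumour cells these genes are often highly expressed, and the serine synthesis and mitochondrial genes are known targets of ATF4, the transcription factor of the amino acid response.

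The promoters of the enzymes were examined for motifs of factors known to act on this pathway. RefSeq promoter sequences, from 250 bases before to 50 bases after a transcription start, were held for 6 of the 9 enzymes, and each matched 1 place in GRCh37. They are shown 5′ to 3′ on the strand of the gene, with matches in capitals, because they let the motifs be read beside the expression values. For *MTHFD1L*, which has 4 listed starts, the first is shown. For all of these but *PSAT1* the RefSeq start lies inside the gene span of the annotation given further on, furthest inside for *PHGDH* and *MTHFD2*.
*PHGDH*, chr1:120254307-120254606, plus strand: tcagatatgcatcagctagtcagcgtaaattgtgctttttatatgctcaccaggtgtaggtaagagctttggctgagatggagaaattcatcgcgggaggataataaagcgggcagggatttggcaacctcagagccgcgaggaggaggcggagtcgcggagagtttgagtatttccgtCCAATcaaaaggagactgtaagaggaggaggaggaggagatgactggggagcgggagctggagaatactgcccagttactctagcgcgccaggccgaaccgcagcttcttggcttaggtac
*PSAT1*, chr9:80911791-80912090, plus strand: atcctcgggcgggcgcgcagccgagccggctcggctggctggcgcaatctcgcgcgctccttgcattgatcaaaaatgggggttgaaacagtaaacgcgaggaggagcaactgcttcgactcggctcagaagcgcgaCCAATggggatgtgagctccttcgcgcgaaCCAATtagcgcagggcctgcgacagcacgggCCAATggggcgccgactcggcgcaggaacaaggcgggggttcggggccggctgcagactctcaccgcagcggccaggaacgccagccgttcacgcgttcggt
*SHMT1*, chr17:18266815-18267114, minus strand: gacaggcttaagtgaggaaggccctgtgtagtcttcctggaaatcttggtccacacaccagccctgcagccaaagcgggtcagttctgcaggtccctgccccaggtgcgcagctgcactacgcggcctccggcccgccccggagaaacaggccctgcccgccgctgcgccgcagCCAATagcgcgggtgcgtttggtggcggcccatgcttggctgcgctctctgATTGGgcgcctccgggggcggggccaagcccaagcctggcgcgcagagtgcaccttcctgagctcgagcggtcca
*MTHFD1*, chr14:64854821-64855120, plus strand: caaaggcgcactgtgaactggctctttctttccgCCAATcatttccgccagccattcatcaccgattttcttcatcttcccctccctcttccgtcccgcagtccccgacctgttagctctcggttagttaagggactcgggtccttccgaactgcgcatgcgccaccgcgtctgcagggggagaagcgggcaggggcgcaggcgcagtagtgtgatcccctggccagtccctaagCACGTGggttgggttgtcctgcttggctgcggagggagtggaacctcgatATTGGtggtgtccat
*MTHFD2*, chr2:74425492-74425791, plus strand: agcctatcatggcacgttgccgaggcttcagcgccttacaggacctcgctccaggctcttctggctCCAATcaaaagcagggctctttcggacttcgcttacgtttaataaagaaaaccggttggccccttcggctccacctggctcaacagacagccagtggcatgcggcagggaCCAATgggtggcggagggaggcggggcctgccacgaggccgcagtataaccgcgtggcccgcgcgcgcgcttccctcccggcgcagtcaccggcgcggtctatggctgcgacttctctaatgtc
*MTHFD1L*, chr6:151187372-151187671, plus strand: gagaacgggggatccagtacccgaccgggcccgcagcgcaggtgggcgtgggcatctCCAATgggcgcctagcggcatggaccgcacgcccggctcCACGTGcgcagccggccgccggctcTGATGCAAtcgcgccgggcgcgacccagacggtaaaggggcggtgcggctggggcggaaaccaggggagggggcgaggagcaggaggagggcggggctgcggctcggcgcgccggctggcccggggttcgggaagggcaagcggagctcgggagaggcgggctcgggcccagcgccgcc

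The motifs searched on both strands were CCAAT, the box bound by NF-Y, CACGTG, an E-box bound by MYC and USF proteins, and TGATGNAA, the composite site of ATF4 with C/EBP proteins. CCAAT or its reverse complement ATTGG was in the promoters of all 6 enzymes, against 34.6% of 34796 promoters of the same length. The *PSAT1* promoter held it at 3 places, from -113 to -109, -83 to -79 and -52 to -48 relative to the start, and the *PHGDH* promoter at 1, from -71 to -67. CACGTG was present in *MTHFD1*, from -15 to -10, and in *MTHFD1L*, from -154 to -149, against 7.2% of all promoters. TGATGNAA was found only in *MTHFD1L* among the 6, as TGATGCAA from -129 to -122, against 3.63% of all promoters. The *MTHFD1L* matches given here are those of the first of its 4 listed starts. Relative to start 2 TGATGCAA lay from 24 to 31, and relative to start 3 from -90 to -83. The window of start 4 held no match to any of the motifs, CCAAT included. These matches describe the letters of the window and do not show that a factor binds there. *PSPH*, *SHMT2* and *ALDH1L2* had no entry.

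In *ZK3*-WT cells the enzymes spanned a wide range of mRNA levels per transcript length. *PSAT1* was the highest, at 466 ± 94.6 TPM (mean ± SD, n = 3), followed by *PHGDH* at 350 ± 22.5 TPM, *MTHFD2* at 333 ± 55.8 TPM and *SHMT2* at 285 ± 12.0 TPM. Each of these overlapped with the next in its range over the 3 libraries. *MTHFD1* at 98.6 ± 2.37 TPM lay below this group without overlap and above *MTHFD1L* at 82.9 ± 6.70 TPM, also without overlap. *PSPH* at 71.1 ± 12.8 TPM overlapped with *MTHFD1L*, and *SHMT1* at 33.9 ± 4.77 TPM and *ALDH1L2* at 7.32 ± 2.14 TPM were each lower than the gene before them in every library. In *ZK3*-KO cells *PSAT1* and *PHGDH* were still first and second by their means, at 294 ± 148 and 285 ± 135 TPM, and *SHMT2*, *MTHFD2* and *MTHFD1* followed at 275 ± 46.9, 238 ± 87.4 and 175 ± 72.0 TPM. These 5 overlapped with one another from each gene to the next, and *MTHFD1* lay above *MTHFD1L* without overlap. *ALDH1L2* was again the lowest, at 2.67 ± 1.37 TPM.

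PHGDH, the dehydrogenase that opens serine synthesis, PSAT1, the aminotransferase of its middle step, and PSPH, the phosphatase that releases serine, had lower mRNA in *ZK3*-KO replicates 1 and 2 than in any *ZK3*-WT library while *ZK3*-KO replicate 3 was within or above the *ZK3*-WT range. In TMM-scaled CPM this library was above every *ZK3*-WT library for all 3 genes, but in TPM and in CPM scaled to library totals alone this held for *PHGDH* only. There, replicate 3 was inside the *ZK3*-WT range for *PSAT1* (441 TPM against 358 to 535) and *PSPH* (70.7 TPM against 57.2 to 82.2). Over all 6 libraries 0 of these 3 passed edgeR's quasi-likelihood test at an FDR of 0.05, and 0 passed DESeq2 or had an unadjusted p under 0.05. *PHGDH* (NCBI Gene 26227, chr1:120191034-120286841 of GRCh37) measured 306, 313 and 343 CPM in *ZK3*-WT and 248, 149 and 480.0 CPM in *ZK3*-KO replicates 1, 2 and 3. Values in *ZK3*-WT were close together, while those in *ZK3*-KO lay on both sides of them, 3.23-fold apart between replicates 2 and 3. The log2 fold change of *ZK3*-KO over *ZK3*-WT was -0.14 with a standard error (SE) of 0.38 and a 95% interval from -1.03 to 0.76 (FDR 0.886). In bulk RNA, fewer cells expressing a gene and less of its RNA per cell cannot be told apart.

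*PSAT1* (NCBI Gene 29968, chr9:80912041-80945009) measured 378, 513 and 564 CPM in *ZK3*-WT and 312, 153 and 580.2 CPM in *ZK3*-KO replicates 1, 2 and 3. *ZK3*-KO replicate 2 was at 0.315 times the *ZK3*-WT mean, the lowest share among the 3 serine synthesis genes, and replicate 3 at 1.20 times. Its log2 fold change was -0.48 (SE 0.44, 95% interval -1.50 to 0.54, FDR 0.612). *PSPH* (NCBI Gene 5723, chr7:56078744-56119297) measured 66.9, 84.5 and 97.0 CPM in *ZK3*-WT and 52.3, 42.9 and 103 CPM in *ZK3*-KO replicates 1, 2 and 3. Here too *ZK3*-WT replicate 1 was the lowest of its genotype and *ZK3*-KO replicate 2 the lowest of all libraries. *PSPH* had a log2 fold change of -0.33 (SE 0.33, 95% interval -1.10 to 0.44, FDR 0.644). *PSPHP1*, a pseudogene that can share reads with *PSPH*, held 413 to 623 reads per library, which is 7.70% to 16.1% of the reads of *PSPH*, and its log2 fold change was 0.01 (FDR 0.993). Pseudogenes of the other members held at most 11 reads in a library.

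Without *ZK3*-KO replicate 3, *PSAT1* and *PSPH* were lower in *ZK3*-KO cells, with log2 fold changes of -1.06 (SE 0.29, FDR 0.0405) and -0.80 (SE 0.19, FDR 0.0237). *PHGDH*, at -0.69 (SE 0.20, FDR 0.0505), did not pass. With replicate 3 retained and replicate 2 left out, the sign of *PHGDH* turned to 0.18 (FDR 0.790).

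**Figure D1:**
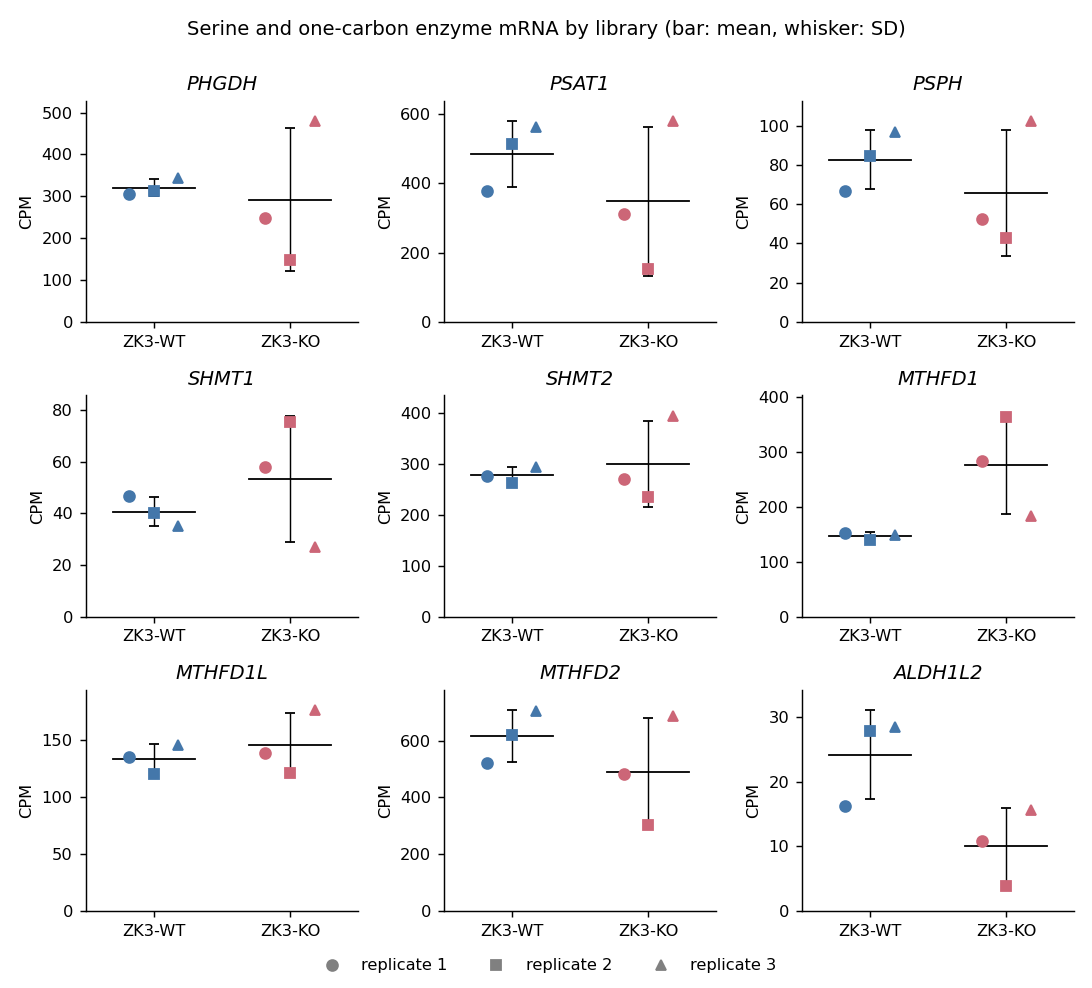
TMM-normalised CPM of the 9 enzymes in each library, on linear axes from 0. Points are single libraries (circle, square and triangle for replicates 1, 2 and 3), the horizontal bar is the mean and the whisker the SD of 3 libraries. In *PHGDH*, *PSAT1* and *PSPH* the *ZK3*-KO triangle lies above all *ZK3*-WT points (in TPM for *PHGDH* only) and the other *ZK3*-KO points below them, and in *SHMT1* the reverse is seen.

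In the cytosol, *MTHFD1* mRNA was higher in every *ZK3*-KO library than in every *ZK3*-WT library, and *SHMT1* mRNA was higher in 2 of 3. MTHFD1 interconverts the folate-bound one-carbon forms and joins formate to tetrahydrofolate, and SHMT1 is the cytosolic serine hydroxymethyltransferase. *MTHFD1* (NCBI Gene 4522, chr14:64854749-64930175) measured 153, 140.3 and 148 CPM in *ZK3*-WT and 283, 363 and 184 CPM in *ZK3*-KO replicates 1, 2 and 3, from 9619 to 25194 reads. The *ZK3*-WT libraries differed by at most 1.09-fold, and the *ZK3*-KO libraries were at 1.92, 2.47 and 1.25 times the *ZK3*-WT mean. The log2 fold change was 0.91 (SE 0.25, 95% interval 0.34 to 1.49), and edgeR's quasi-likelihood test gave an FDR of 0.118, so it did not pass over all 6 libraries. It passed in DESeq2 (0.92, FDR 0.0167) and in edgeR without *ZK3*-KO replicate 3 (1.14, SE 0.14, FDR 0.00223).

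The separation of the *MTHFD1* groups depended on the scale through *ZK3*-KO replicate 3. In the authors' TPM this library was at 97.8, inside the *ZK3*-WT range of 96.3 to 101, while *ZK3*-KO replicates 1 and 2 were at 187 and 240.2 TPM. In CPM scaled to library totals alone, without TMM factors, replicate 3 was at 168, above the highest *ZK3*-WT value of 158. *MTHFD1* overlaps by 14352 bases with *ZBTB25* on the opposite strand, and whether the counting used strand is not given in the sources used here. *ZBTB25* had at most 2530 reads in a library and a log2 fold change of 0.04.

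Other genes of chromosome 14 were also higher. Of 504 tested genes of this chromosome 53 rose and 3 fell over all 6 libraries (11.1%, against 2.05% of tested genes). Without *ZK3*-KO replicate 3, 200 rose and 18 fell (43.2%, against 15.1%). DESeq2 called 156 of the 504 higher and 9 lower, where it called 8.2% of all tested genes (711 higher and 795 lower). The median log2 fold change on this chromosome was 0.51, against 0.02 for all tested genes. By library, the chromosome 14 median stood 0.48, 0.47 and 0.39 (log2) above the *ZK3*-WT mean in *ZK3*-KO replicates 1, 2 and 3, and *MTHFD1* exceeded it by 0.46 and 0.83 in replicates 1 and 2 and differed by -0.06 in replicate 3. Against this median the *MTHFD1* fold change was 0.40. Within 1 Mb of *MTHFD1*, a window set after the values were seen, 22 other genes were tested, with a median of 0.50. Of these 19 had positive values, as did 404 of the 504 on the chromosome and 9488 of the 18366 tested genes. *RAB15*, *FNTB* and *FUT8* rose, at 1.14 (FDR 0.0422), 1.02 (FDR 0.0457) and 0.92 (FDR 0.0418). That is 3 of 22 called (13.6%, against 11.1% on the chromosome and 2.05% of tested genes). The separate entry *CHURC1-FNTB* was at 0.12 (FDR 0.877). Without *ZK3*-KO replicate 3, 8 of the 22 rose, *RAB15*, *FNTB* and *FUT8* among them. This is 36.4%, against 39.7% on the chromosome and 7.41% of tested genes. With the replicate number as a block *FUT8* no longer passed (FDR 0.0558). The part of the chromosome in the *MTHFD1* values was not tested.

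*SHMT1* (NCBI Gene 6470, chr17:18231174-18266877, minus strand) measured 46.6, 40.0 and 35.2 CPM in *ZK3*-WT and 57.7, 75.3 and 27.1 CPM in *ZK3*-KO replicates 1, 2 and 3. *ZK3*-KO replicates 1 and 2 were above all *ZK3*-WT libraries and replicate 3 was below them, the mirror image of the serine synthesis genes. The log2 fold change was 0.39 (SE 0.34, 95% interval -0.40 to 1.19, FDR 0.588) over 6 libraries and 0.72 (SE 0.17, FDR 0.0250) without *ZK3*-KO replicate 3. *SMCR8*, on the opposite strand, overlaps *SHMT1* by 197 bases and had up to 4196 reads.

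Of the mitochondrial enzymes, *ALDH1L2* was lower in every *ZK3*-KO library, and *SHMT2* and *MTHFD1L* had log2 fold changes close to 0. ALDH1L2 oxidises formyl-tetrahydrofolate to carbon dioxide and yields NADPH. *ALDH1L2* (NCBI Gene 160428, chr12:105413562-105501421, minus strand) measured 16.3, 27.8 and 28.5 CPM in *ZK3*-WT and 10.8, 3.94 and 15.6 CPM in *ZK3*-KO replicates 1, 2 and 3, from 273 to 1990 reads. The groups did not overlap in CPM or in TPM, but *ZK3*-WT replicate 1 and *ZK3*-KO replicate 3 lay next to each other. *ZK3*-KO replicate 2 was at 0.163 times the *ZK3*-WT mean, the lowest share of any member in any library. Its log2 fold change was -1.26 (SE 0.47, 95% interval -2.36 to -0.16, FDR 0.221) over 6 libraries, which did not pass, and -1.72 (SE 0.41, FDR 0.0260) without *ZK3*-KO replicate 3. *WASHC4*, on the opposite strand, overlaps *ALDH1L2* by 320 bases and had up to 4911 reads, more than *ALDH1L2* itself, with a log2 fold change of -0.40.

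MTHFD2 is the mitochondrial methylene-tetrahydrofolate dehydrogenase and cyclohydrolase. *MTHFD2* (NCBI Gene 10797, chr2:74413299-74444692) measured 522, 621 and 704 CPM in *ZK3*-WT and 482, 304 and 685 CPM in *ZK3*-KO replicates 1, 2 and 3. *ZK3*-KO replicates 1 and 2 were below all *ZK3*-WT libraries and replicate 3 was within their range. *MTHFD2* had a log2 fold change of -0.33 (SE 0.29, 95% interval -1.01 to 0.36, FDR 0.603) over 6 libraries and -0.64 (SE 0.21, FDR 0.0695) without *ZK3*-KO replicate 3.

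SHMT2, the mitochondrial serine hydroxymethyltransferase, and MTHFD1L, which releases formate, showed the narrowest intervals. *SHMT2* (NCBI Gene 6472, chr12:57623356-57628718) measured 276, 263 and 295 CPM in *ZK3*-WT and 270.2, 235 and 396 CPM in *ZK3*-KO replicates 1, 2 and 3, and its log2 fold change was 0.11 (SE 0.21, 95% interval -0.39 to 0.61, FDR 0.824). *MTHFD1L* (NCBI Gene 25902, chr6:151186815-151423023) measured 135, 119.9 and 146 CPM in *ZK3*-WT and 139, 121 and 176 CPM in *ZK3*-KO replicates 1, 2 and 3, and its log2 fold change was 0.12 (SE 0.18, 95% interval -0.30 to 0.54, FDR 0.769). In CPM *ZK3*-KO replicate 3 was the highest library in both genes, while in TPM *MTHFD1L* in this library (88.8) was just under the highest *ZK3*-WT value (89.3). Replicate 1 lay within the *ZK3*-WT CPM range, and replicate 2 lay within it for *MTHFD1L* and below it for *SHMT2*. Without replicate 3 the values were -0.13 (FDR 0.516) for *SHMT2* and -0.03 (FDR 0.890) for *MTHFD1L*.

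Over all 6 libraries edgeR's quasi-likelihood test called 0 of the 9 enzymes at an FDR of 0.05, and 376 of 18366 tested genes (2.05%). *MTHFD1* and *ALDH1L2* had an unadjusted p under 0.05, at 0.00668 and 0.0302 in the same test, which is 2 of 9 (22.2%) against 18.4% of tested genes. The same 2 were the members whose CPM did not overlap between the genotypes (22.2%), against 26.6% of tested genes. These shares are near the background. DESeq2 called 1 of the 9, *MTHFD1*, and 8.2% of tested genes.

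Without *ZK3*-KO replicate 3, 5 of the 9 enzymes (55.6%) passed, against 15.1% of 18872 tested genes. *SHMT1* and *MTHFD1* rose, where 7.41% of genes did, and *PSAT1*, *PSPH* and *ALDH1L2* fell, where 7.73% did. The median log2 fold change of the 9 was -0.14 over all libraries and -0.64 without replicate 3, against 0.02 and -0.02 for all tested genes. This fit rests on 2 *ZK3*-KO libraries, and the library was known to stand apart when it was left out.

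**Figure D2:**
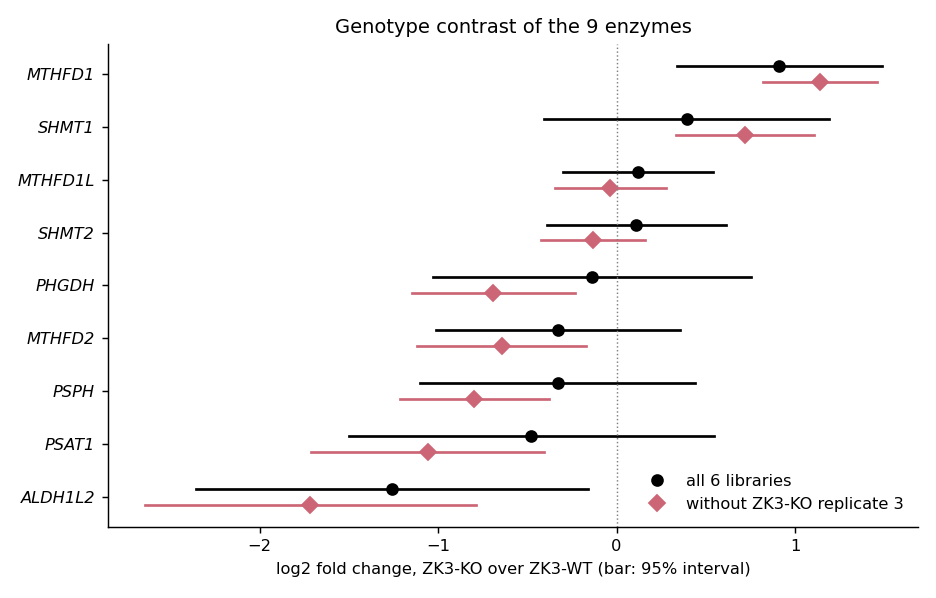
Log2 fold change of *ZK3*-KO over *ZK3*-WT with its 95% interval for the 9 enzymes, from edgeR's fit of all 6 libraries (circles) and without *ZK3*-KO replicate 3 (diamonds). Over all libraries only the intervals of *MTHFD1* (0.34 to 1.49) and *ALDH1L2* (-2.36 to -0.16) leave out 0, and both had an FDR over 0.05.

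The *ZK3*-KO libraries fell in the same order in most of the enzymes. *PHGDH*, *PSAT1*, *PSPH*, *MTHFD2*, *SHMT2*, *MTHFD1L* and *ALDH1L2* were lowest in replicate 2, intermediate in replicate 1 and highest in replicate 3, with replicate 3 between 1.45-fold (*MTHFD1L*) and 3.97-fold (*ALDH1L2*) above replicate 2. *SHMT1* and *MTHFD1* had the opposite order, with replicate 2 at 2.78-fold and 1.97-fold of replicate 3. The difference between *ZK3*-KO libraries was larger than that within *ZK3*-WT, where the highest library exceeded the lowest by 1.09-fold (*MTHFD1*) to 1.75-fold (*ALDH1L2*). Across all tested genes *ZK3*-KO replicates 2 and 3 were likewise the least alike (r = 0.950 of log2 CPM). Replicates 1 and 3 were at 0.963 and replicates 1 and 2 at 0.985. The share of all genes with either order was not counted, so the order is not shown to be particular to the enzymes.

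ATF4 and its targets, a list of 23 genes without the 9 enzymes, had the order of the serine synthesis genes. Like all lists here, it was written with earlier results of these data known, so its shares are a description only. With each gene set against its *ZK3*-WT mean, the median of the 22 tested genes was -0.89, -2.10 and 0.72 (log2) in *ZK3*-KO and -0.57, 0.03 and 0.43 in *ZK3*-WT replicates 1, 2 and 3. *ATF4* itself measured 594, 653 and 736 CPM in *ZK3*-WT and 575, 403 and 1063 CPM in *ZK3*-KO replicates 1, 2 and 3 (log2 fold change 0.04, FDR 0.964). Of the 22 genes 0 passed over all 6 libraries in edgeR or DESeq2 and 1 had an unadjusted p under 0.05, with a median log2 fold change of -0.27, and without *ZK3*-KO replicate 3, 11 fell (50%, against 7.73% of tested genes) and 0 rose.

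Among the *ZK3*-KO libraries the S phase list, of replication genes, had the order of *SHMT1* and *MTHFD1*. In *ZK3*-KO replicate 3 *MTHFD1* was still above its *ZK3*-WT mean, by 0.32 (log2). The median of the list was 0.90, 1.38 and -0.55 (log2) in *ZK3*-KO and 0.33, -0.26 and -0.11 in *ZK3*-WT replicates 1, 2 and 3. Of its 16 genes 0 passed over all 6 libraries in edgeR or DESeq2, 1 had an unadjusted p under 0.05, and 15 rose without *ZK3*-KO replicate 3 (93.8%, against 7.41% of tested genes). The glycolysis list, of the pathway that supplies the precursor of serine, had *ZK3*-KO medians of 0.50, 0.15 and -0.10. Of its 14 genes 0 passed over 6 libraries in either tool, and 0 had an unadjusted p under 0.05 in edgeR's test. Without replicate 3, 1 was higher (7.14%, against 7.41% of tested genes). The part of these programmes in the values of the enzymes was not tested.

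**Figure D3:**
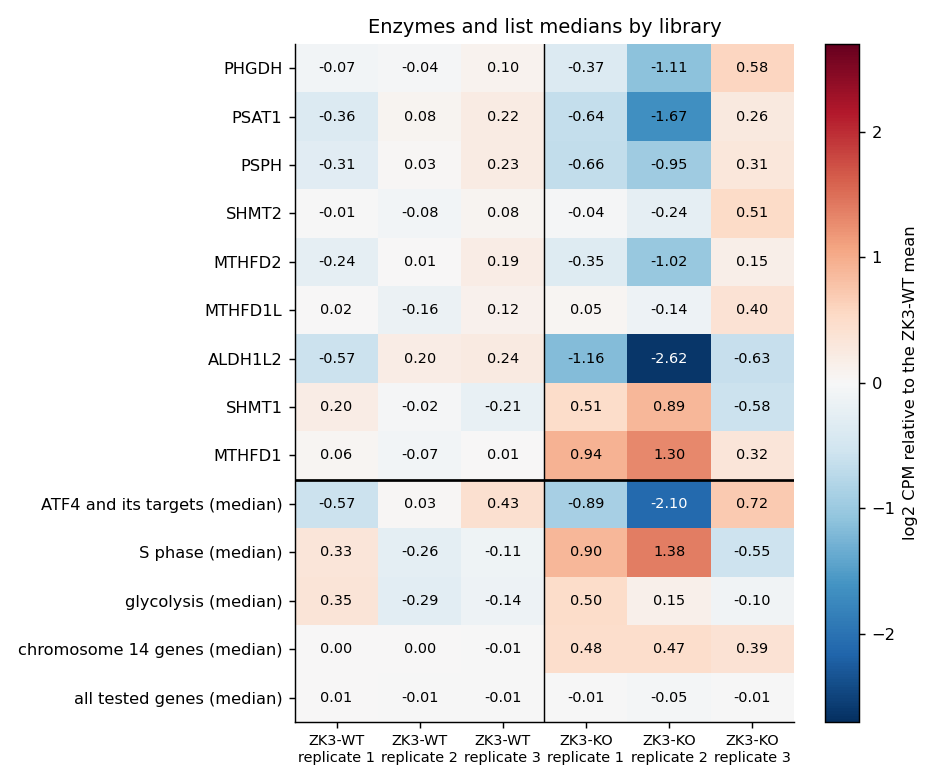
Log2 CPM of each enzyme relative to its *ZK3*-WT mean, and medians of the ATF4, S phase, glycolysis, chromosome 14 and all-gene lists, in each of the 6 libraries (red higher, blue lower). In the *ZK3*-KO columns *PSAT1* reads -0.64, -1.67 and 0.26 and the ATF4 list -0.89, -2.10 and 0.72, while *SHMT1* reads 0.51, 0.89 and -0.58 and the S phase list 0.90, 1.38 and -0.55.

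The ratios of mitochondrial to cytosolic enzymes differed widely between *ZK3*-KO libraries. The TPM ratio of *SHMT2* to *SHMT1* was 7.35, 8.05 and 10.3 in *ZK3*-WT and 5.72, 3.68 and 17.9 in *ZK3*-KO replicates 1, 2 and 3. The ratio of *MTHFD2* to *MTHFD1* was 2.86, 3.26 and 4.02 in *ZK3*-WT and 1.29, 0.622 and 3.32 in *ZK3*-KO cells. In *ZK3*-KO replicate 2 *MTHFD1* was thus the more abundant of the pair per transcript length, as in no other library. The ratios within serine synthesis varied less, with *PSAT1* to *PHGDH* between 1.08 and 1.46 in *ZK3*-WT and between 0.892 and 1.12 in *ZK3*-KO cells.

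Profiles over the 6 libraries were compared by the root mean square (RMS) difference of log2 CPM, each gene centred on its own mean, among 13011 genes. Between the enzymes the closest pair was *SHMT2* with *MTHFD1L* (RMS 0.0805), followed by *PSPH* with *MTHFD2* (0.147) and *PHGDH* with *MTHFD2* (0.189). *SHMT1* and *MTHFD1* were 0.348 apart, and *SHMT1* was 0.984 from *PHGDH*. Among the genes most like *MTHFD1* were *CDCA4* (0.0538), also on chromosome 14, and *FDFT1* (0.0763). The nearest to *ALDH1L2* was *SLC7A11* (0.209), the cystine transporter subunit and a gene of the ATF4 list, then *MAP1B* (0.213) and *SKAP1* (0.237). *PSAT1* was nearest to *SCN4A* (0.0348), *TTC25* (0.0674) and *MALAT1* (0.0828), *PHGDH* to *CALCOCO2* (0.0863), *THBS3* (0.0865) and *PLIN5* (0.0937), and *PSPH* to *LOC105371453* (0.0468), *TMEM250* (0.0502) and *PRNP* (0.0531). *SHMT1* was nearest to *RBM12* (0.0428), *GEN1* (0.0549) and *PIK3R4* (0.0619), and genes near *MTHFD2* included *TBC1D3* (0.0704) and *ETV5* (0.0716). Genes near *SHMT2* included *F11R* (0.0186) and *METTL23* (0.0311), and *MTHFD1L* was nearest to *SGSM2* (0.0245), *PRKCZ* (0.0340) and *APBA3* (0.0357). With 6 points a close profile is a description only.

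The genes that use or supply the same one-carbon units were described with 4 further lists of 63 genes, of which 57 were tested. Over all 6 libraries 0 rose and 3 fell, *PRPS1*, *ALDH1L1* and *FTCD* (5.26%, against 2.05% of tested genes). Of the 57, 11 had an unadjusted p under 0.05 in edgeR's quasi-likelihood test (19.3%, against 18.4% of tested genes). DESeq2 called 1 of the 57 higher and 4 lower, where it called 8.2% of all tested genes. The median log2 fold change of the 57 was 0.06. By list, the medians were -0.01 for folate cycle and transport and -0.04 for glycine and serine use and transport. They were 0.11 for purine synthesis and 0.19 for the methionine cycle and polyamines. In the folate list 2 of 17 fell (11.8%, 2 in DESeq2 and 4 by unadjusted p). In the purine list 1 of 13 fell (7.69%, 1 in DESeq2 and 2 by unadjusted p). In the glycine and serine list 0 of 17 passed (1 in DESeq2 and 3 by unadjusted p). In the methionine list 0 of 10 passed (1 in DESeq2 and 2 by unadjusted p). Without *ZK3*-KO replicate 3, 19 of 58 passed (32.8%), 11 higher and 8 lower, against 15.1% of tested genes.

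PRPS1 makes phosphoribosyl pyrophosphate, the sugar on which purines are built with one-carbon units. *PRPS1* (NCBI Gene 5631, chrX:106871658-106895223) measured 53.2, 47.4 and 49.4 CPM in *ZK3*-WT and 7.87, 5.93 and 6.57 CPM in *ZK3*-KO replicates 1, 2 and 3. Every *ZK3*-KO library was at 0.119 to 0.158 times the *ZK3*-WT mean, and in CPM replicate 3 lay between the other 2, unlike in the enzymes. In TPM it was the lowest, at 5.31 against 7.92 and 5.96 in *ZK3*-KO replicates 1 and 2. The log2 fold change was -2.88 (SE 0.17, FDR 0.000811) in edgeR's quasi-likelihood test, and -2.85 without replicate 3. The 2 copies of *PRPS1* in the table had 0 reads.

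ALDH1L1 is the cytosolic counterpart of ALDH1L2. *ALDH1L1* (NCBI Gene 10840, chr3:125822405-125916837) had few reads, 161, 242 and 219 in *ZK3*-WT and 6, 17 and 13 in *ZK3*-KO replicates 1, 2 and 3. The groups were far apart at a low level, 2.56 to 3.45 CPM against 0.0932 to 0.245 CPM. Its log2 fold change was -4.04 (SE 0.40, FDR 0.00559), and -4.14 without replicate 3. FTCD joins the breakdown of histidine to the folate pool. *FTCD* (NCBI Gene 10841, chr21:47556074-47575493) had 80, 81 and 65 reads in *ZK3*-WT and 25, 15 and 14 in *ZK3*-KO replicates 1, 2 and 3, and fell by 2.01 on the log2 scale (SE 0.37, FDR 0.0435), and by 1.88 without replicate 3 (FDR 0.0177). This call was lost in 6 of 13 alternatives, at an FDR up to 0.208, among them the removal of any library other than *ZK3*-KO replicate 3. The median of 144 tested chromosome 21 genes was -0.39, and -0.38 without replicate 3.

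**Figure D4:**
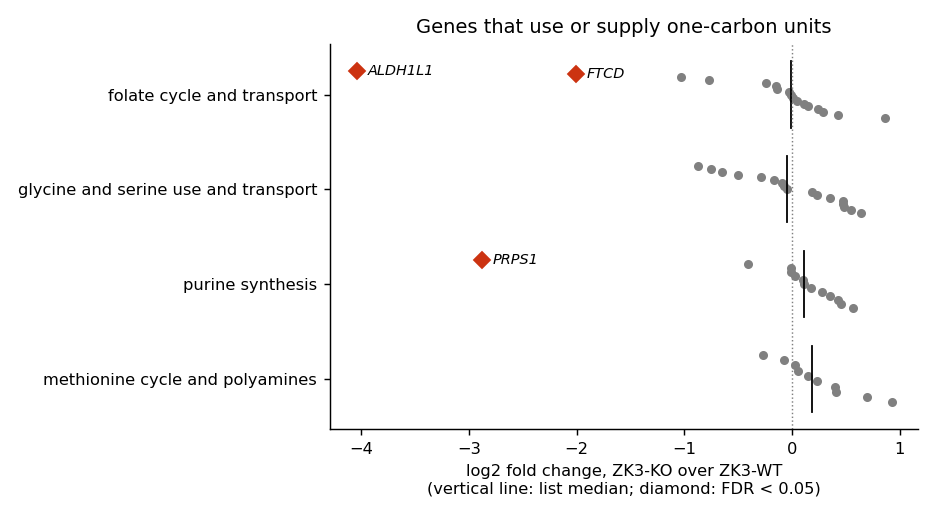
Log2 fold change of *ZK3*-KO over *ZK3*-WT for the tested genes of the 4 lists of genes that use or supply one-carbon units, 1 point a gene, with the list median as a vertical line. Diamonds mark the 3 genes past an FDR of 0.05, *ALDH1L1* (-4.04), *PRPS1* (-2.88) and *FTCD* (-2.01), and the list medians lie between -0.04 and 0.19.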

How the data were processed

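Polyadenylated RNA of 3 *ZK3*-WT and 3 *ZK3*-KO cultures was sequenced by the authors from stranded libraries. The authors deposited 1 table of read counts per gene without normalization, with FPKM and TPM values computed by the authors beside them. The methods name Bowtie 2 in Partek Flow with an Ensembl annotation of hg19, and the submitters' processing notes give Bowtie2 2.2.5, while the deposited rows carry NCBI Gene IDs with RefSeq transcript names. The counting tool is not given in the sources used here. The methods' ANOVA on TPM was kept as an alternative (limma on log2(TPM + 1)). FPKM values were not used. Every per-sample column was assigned by its name, and 0 rows lacked a gene symbol.

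Counts were filtered with filterByExpr, scaled with TMM factors (0.910 for *ZK3*-KO replicate 3 and 0.994 to 1.03 for the others) and tested with edgeR's quasi-likelihood test (edgeR 4.0.16, limma 3.58.1, R 4.3.3), with genotype as the only factor. Benjamini-Hochberg adjustment over all tested genes gave the FDR, with a threshold of 0.05. SE is the absolute log2 fold change divided by the square root of F. The script was tested on simulated data. The alternatives were DESeq2 1.42.0, RLE size factors, library totals, no filter, at least 10 reads in every library, limma on TPM, the replicate block and each library left out in turn. Libraries of equal replicate number deviated together from their genotype means (r = 0.294, 0.112 and 0.449 across genes for numbers 1, 2 and 3), all over 0.1, although *ZK3*-KO replicate 2 was closer to *ZK3*-WT replicate 1 (0.209). The labels do not say what the numbers mark.

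The members and lists were chosen with earlier results of these data known. The text names all members, the 3 genes of nearest profile for each among those averaging 1 or more in log2 CPM (some of which are not reported here), every further one-carbon gene past the threshold, *ZKSCAN3*, pseudogenes of members, and, chosen after their values were seen, *ATF4*, genes overlapping a member and genes near one past the threshold. Gene positions were looked up by symbol in a GRCh37 annotation and found for 87.0% of tested genes. P-values set the difference between genotypes against the spread between these libraries. Whether that spread includes separate clones is not given. Counting error at these depths is at most 6.05% for any member.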

Additional observations from a re-analysis of the deposited data

How the results depend on the processing

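Of 9 enzymes, 0 passed the threshold under every alternative except DESeq2 (1, *MTHFD1*) and the removal of *ZK3*-KO replicate 3. Leaving out 1 library at a time gave 0 to 5 enzymes, 2 to 19 of the further one-carbon genes (3 over all libraries, 5 in DESeq2) and 49 to 2858 of all tested genes (376 over all libraries, 1506 in DESeq2). The all-gene count was 67, 49 and 57 without *ZK3*-WT replicates 1, 2 and 3 and 74, 158 and 2858 without *ZK3*-KO replicates 1, 2 and 3, so each library moved it by over 1.5 times. The cause was not tested.

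The sign turned for *PHGDH* without *ZK3*-KO replicate 2 and for *SHMT2* and *MTHFD1L* without replicate 3, where leaving out 1 library gave -0.691 to 0.182, -0.133 to 0.26 and -0.034 to 0.236, and for the last 2 in limma on TPM (-0.067 and -0.005). The other 6 enzymes kept their direction in all 13 alternatives, *MTHFD1* between 0.67 and 1.14 (FDR 0.00223 to 0.411) and *ALDH1L2* between -1.72 and -0.87 (FDR 0.0260 to 0.558). *PRPS1* passed in all 13 and *ALDH1L1* in the 12 that tested it, but limma on log2(TPM + 1), a scale that understates changes of low genes, gave -1.50 for *ALDH1L1* and -0.60 for *FTCD*. With the replicate number as a block, 461 tested genes, 0 enzymes and 3 further one-carbon genes passed, and the block changed no call of an enzyme, *PRPS1*, *ALDH1L1* or *FTCD*.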

Other observations

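The neighbours of the 2 further genes with the largest changes were read from a window of 1 Mb on either side, set after the values were seen. Of 15 tested genes near *ALDH1L1*, 1 passed in edgeR's quasi-likelihood test (6.67%, against 2.05% of tested genes). This was *SLC41A3*, which fell by 1.03 on the log2 scale (FDR 0.0176). DESeq2 called 2 of the 15, both lower, and 8.2% of tested genes. By unadjusted p under 0.05 in edgeR's test it was 3 of the 15 (20%, against 18.4%), and the median was -0.01. Without *ZK3*-KO replicate 3, 1 of the 15 was higher and 3 lower (26.7%, against 15.1% of tested genes), *SLC41A3* among them (FDR 0.00328). Of 15 tested genes near *PRPS1*, 0 passed in edgeR and 6 in DESeq2 (4 higher, 2 lower), where DESeq2 called 8.2% of tested genes. By unadjusted p under 0.05 in edgeR's test it was 8 of the 15 (53.3%, against 18.4% of tested genes). The median was 0.02, with values from -1.58 to 0.86. Without *ZK3*-KO replicate 3, 5 of the 15 were higher and 3 lower (53.3%, against 15.1%).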
